A study of Mus musculus with 7 samples.

Results

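Among 5 mouse esophageal epithelial cell lines labelled 4NQO, 3 expressed the fibrillar collagen gene Col3a1 and 2 had almost none of its RNA, and the 2 sides of that split were compared over all other genes. The lines were chosen by their measured Col3a1 level in CPM, a gene's count scaled to its library's total, and a line was on the collagen-high side at 10 CPM or more. The collagen-high lines were mutant 1, mutant 3 and null 3, the collagen-low lines were mutant 2 and null 1, and these 5 were among 7 lines in the series. Col3a1 stood at 155, 186 and 286 CPM in mutant 1, mutant 3 and null 3, against 0.218 and 0.0893 CPM in mutant 2 and null 1. The nearest lines inside and outside the threshold were therefore mutant 1 and mutant 2. Because Col3a1 itself sorted the lines, it is left out of what follows, and every other difference between the sides is given as a description without a test.

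The mutant lines carried the p53R172H allele, a missense change in the DNA-binding domain of p53, and the null lines had genotype p53 -/-. All 5 also carried the treatment label 4NQO, which stands for the carcinogen 4-nitroquinoline 1-oxide, so 4NQO and the p53 genotype cannot be told apart against WT. The other 2 lines were wild type (WT) without that label, and they were not used by the rule. The labels call the strain background mixed. They name no promoter or Cre and do not say whether a line is 1 clone or which animal it came from. Cells were grown on plastic in keratinocyte serum-free medium (KSFM), and polyadenylated RNA was sequenced. Totals were 25469853 to 47000225 counts in the collagen-high lines, 33598210 and 41325469 in the collagen-low lines and 12751118 and 31283848 in WT, so 1 count was worth 0.0213 to 0.0784 CPM. Trp53, the gene that encodes p53, stood at 4.87 and 8.54 CPM in null 3 and null 1 and at 179 to 259 CPM in the other 5 lines. A gene-level count does not show a missense allele.

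Interstitial matrix is built from fibrillar collagens, which are secreted as procollagens, trimmed by proteases, coated by small leucine-rich proteoglycans and cross-linked by lysyl oxidases. Fibronectin, fibrillins and collagen VI form companion networks, and nidogens belong to the basement membrane. In the esophagus these genes are mostly the work of fibroblasts under the epithelium, while basal epithelial cells are known for keratins 5 and 14 and the transcription factor p63. Epithelial cells that undergo epithelial-mesenchymal transition (EMT) can make matrix too. Each library is a bulk sample, so fewer cells of a type and less RNA per cell cannot be told apart.

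Matrix genes were prominent among the widest gaps, and the lower side was much smaller. Of 12264 genes with at least 1 CPM in at least 2 of the 5 lines, 89 (0.726%) were at least 4-fold higher in every collagen-high line than in both collagen-low lines, on CPM + 0.5. None (0%) was at least 4-fold lower by the same rule. Leaving out a line relaxes this rule, so the count of 89 could hardly fall. It was 263 without mutant 3, 327 without mutant 2 and 184 without null 1, and the count lower was 56 without mutant 2. The count of 89 became 146 with 0.1 added to CPM in place of 0.5, and 40 with 2 added. Without the 4-fold condition, 1447 genes (11.8%) were higher with no overlap of the sides and 1006 (8.2%) were lower with no overlap. The median difference over all genes considered was 0.04 on log2(CPM + 0.5), collagen-high minus collagen-low, so the sides were centred alike. The nearest-line gap used below is the log2 ratio between the closest lines of the 2 sides on CPM + 0.5, which understates the change of genes near 0. Interstitial collagens, collagen processing, small leucine-rich proteoglycans, and elastic fibre and matricellular genes together had 66 genes considered. Of these, 20 (30.3%) were at least 4-fold higher, 37 were higher without overlap and 0 were lower without overlap. The rule chose the lines on a gene of this family, so these shares are not independent support for it. The filter also passed genes expressed in the collagen-high lines alone, which raises such shares. In 59 of the 89 genes both collagen-low lines were under 1 CPM.

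The widest gap belonged to Bgn, which encodes biglycan, a small proteoglycan that binds collagen fibrils. Bgn had 932, 599 and 898 CPM in mutant 1, mutant 3 and null 3, against 0.145 and 0.774 CPM in mutant 2 and null 1, and 0.0959 and 3.37 CPM in WT 1 and WT 2. Its nearest-line gap was 8.88. Every collagen-high line was thus far above both the collagen-low and the WT lines. Aebp1, which encodes a secreted collagen-binding protein, had 211, 54.8 and 314 CPM in the collagen-high lines (mutant 1, mutant 3, null 3), against 0.0242 and 0.387 CPM in the collagen-low lines (mutant 2, null 1). The nidogen gene Nid1 had 47.2, 33.4 and 81.6 CPM in the collagen-high lines, against 0 and 0.327 CPM in the collagen-low lines. In both genes mutant 3 was the lowest of the collagen-high lines and still lay far above the collagen-low side, with gaps of 5.96 and 5.36.

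The collagens themselves split in degree. Of 16 interstitial collagen genes listed without Col3a1, 14 were considered, with a median difference of 3.41. Of the 14, 10 were higher without overlap, 5 of those at least 4-fold, and 0 were lower without overlap. The shares of all genes considered were 11.8%, 0.726% and 8.2%. Col1a1, the main chain of type I collagen, had 44.9, 113 and 35.6 CPM in the collagen-high lines, against 3.44 and 1.012 CPM in the collagen-low lines and 0.735 and 1.96 CPM in WT. Its gap was 3.20, and mutant 3 was the highest line. Its partner chain Col1a2 had 341, 1.54 and 10.4 CPM in the collagen-high lines, against 0 and 0.298 CPM in the collagen-low lines. The 2 chains of type I collagen therefore did not keep a common order, since mutant 3 led for Col1a1 and was the lowest collagen-high line for Col1a2. Col5a2, a chain of the fibril-nucleating type V collagen, had 99.9, 10.9 and 319 CPM in the collagen-high lines, against 0.920 and 0.0595 CPM in the collagen-low lines. Col6a1 and Col6a2, 2 chains of the beaded-filament collagen VI, were near 0 in both collagen-low lines. Col6a1 had 67.04, 30.6 and 83.7 CPM in the collagen-high lines, against 0.460 and 0.208 CPM in the collagen-low lines, and Col6a2 had 16.1, 17.7 and 38.8 CPM against 0.290 and 0.208 CPM. Col5a1 overlapped, with 140, 67.3 and 167 CPM in the collagen-high lines against 87.2 and 3.01 CPM in the collagen-low lines, so mutant 2 lay between mutant 3 and mutant 1. Col12a1 and Col16a1 overlapped too, and neither was low on the collagen-low side, at 25.2 to 36.8 CPM.

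**Figure D1:**
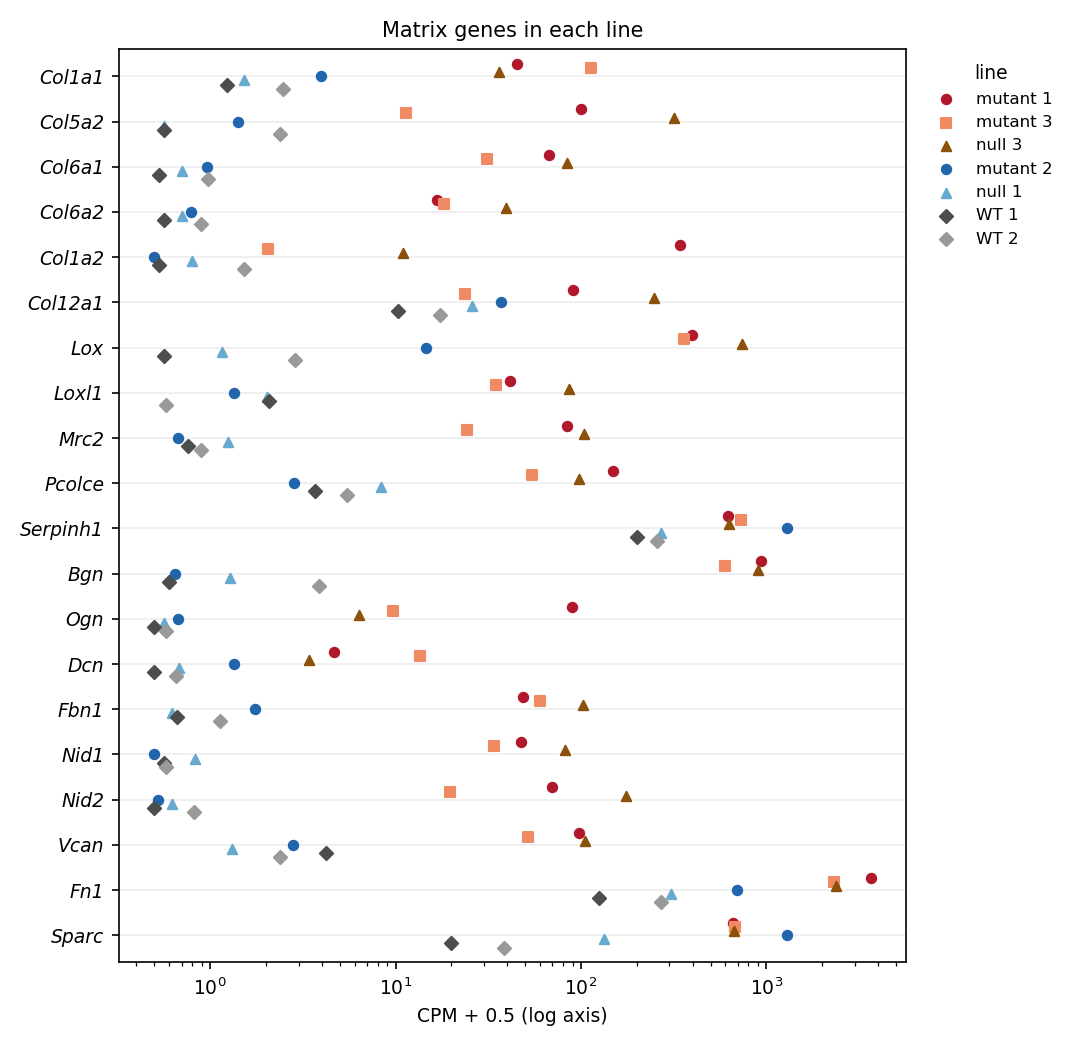
Matrix genes by line: each row is a gene, the axis is CPM + 0.5 on a log scale, and each point is 1 library (circles and squares mutant, triangles null, diamonds WT, with reds and brown for collagen-high, blues for collagen-low and greys for WT). Bgn, Nid1, Nid2 and Col6a1 leave a wide empty stretch between the collagen-high and the collagen-low lines, whereas Col12a1, Serpinh1 and Sparc do not separate them.

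Collagen processing and cross-linking genes were partly on the collagen-high side. Of 24 listed genes, 23 were in the table and considered, with a median difference of 1.29. Of the 23, 10 were higher without overlap, 6 of those at least 4-fold, and 0 were lower without overlap. The shares of all genes considered were 11.8%, 0.726% and 8.2%. Lox, the lysyl oxidase that starts cross-linking, had 398, 361 and 739 CPM in the collagen-high lines, against 14.04 and 0.655 CPM in the collagen-low lines and 0.0639 and 2.35 CPM in WT. Its relatives Loxl1, Loxl2 and Loxl3 were also at least 4-fold higher, while Loxl4 overlapped, at 40.9, 5.57 and 15.5 CPM in the collagen-high lines and 11.2 and 37.9 CPM in the collagen-low lines. Pcolce, an enhancer of procollagen trimming, had 148, 53.7 and 96.6 CPM in the collagen-high lines, against 2.35 and 7.83 CPM in the collagen-low lines. Mrc2, an endocytic receptor for collagen, had 83.4, 23.8 and 104 CPM in the collagen-high lines, against 0.169 and 0.744 CPM in the collagen-low lines. The 4 genes higher without overlap by less than 4-fold were P4ha3, Adamts2, Adamts14 and Crtap. Among the 13 that overlapped, the prolyl hydroxylase subunit P4ha1 had 89.4, 86.5 and 76.8 CPM in the collagen-high lines and 79.2 and 72.7 CPM in the collagen-low lines, a difference of 0.15. The collagen chaperone Serpinh1 was highest in the collagen-low line mutant 2, at 1298 CPM, with 620 to 728 CPM in the collagen-high lines.

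Proteoglycans, elastic fibre genes and adhesive glycoproteins followed the split in part. Of 10 small leucine-rich proteoglycans only 5 were considered, and 4 of these were higher without overlap, beside 11.8% of all genes considered. Ogn, which encodes osteoglycin, had 88.7, 9.19 and 5.85 CPM in the collagen-high lines, against 0.169 and 0.0595 CPM in the collagen-low lines. Dcn, which encodes decorin, had 4.17, 13.0 and 2.91 CPM in the collagen-high lines, against 0.847 and 0.179 CPM in the collagen-low lines. Decorin was thus higher without overlap but low everywhere, with a gap of 1.34, and as a marker it was weaker than biglycan. Of 30 elastic fibre and matricellular genes, 24 were considered, 13 were higher without overlap, 7 at least 4-fold, and 0 were lower. The shares of all genes considered were 11.8%, 0.726% and 8.2%. Fbn1, which encodes the microfibril protein fibrillin, had 47.9, 59.5 and 102 CPM in the collagen-high lines, against 1.23 and 0.119 CPM in the collagen-low lines. The hyaluronan-binding proteoglycan gene Vcan had 97.2, 51.2 and 105 CPM in the collagen-high lines, against 2.30 and 0.804 CPM in the collagen-low lines. Fn1, which encodes fibronectin, was abundant on both sides, at 3647, 2307 and 2383 CPM in the collagen-high lines against 691 and 304 CPM in the collagen-low lines. Sparc, which encodes a collagen-binding matricellular protein, overlapped, with 656 to 679 CPM in the collagen-high lines and 132 CPM in null 1 but the highest value of all, 1289.5 CPM, in mutant 2. Postn, which encodes periostin, was near 0 in 1 collagen-high line, with 306, 0.117 and 59.99 CPM in the collagen-high lines against 0.0484 and 0.179 CPM in the collagen-low lines.

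Promoter stretches are shown for genes on both sides of the comparison: Bgn, Col6a1 and Col6a2, whose values left a wide gap, and Gstp2, a detoxification gene described below that was lower. They are the last 120 bases before the RefSeq gene start on GRCm38.p6, 5′ to 3′ on the gene's strand. The submitters' processing notes name mm9, so these coordinates belong to the reference and not to the counts. Capitals mark matches, on either strand, to 4 motifs chosen after the gene sets were known: GGAATG (bound by TEAD factors), TGANTCA (AP-1), GGGCGG (SP1) and TGACNNNGC (the core of the antioxidant response element). Matches may overlap, as the paired SP1 matches at the end of the Bgn stretch and the antioxidant core and SP1 matches in Col6a2 do.
Bgn (chrX:73483481-73483600, plus strand): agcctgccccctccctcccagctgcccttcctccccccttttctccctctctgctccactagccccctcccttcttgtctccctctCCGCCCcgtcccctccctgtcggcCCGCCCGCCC
Col6a1 (chr10:76726045-76726164, minus strand): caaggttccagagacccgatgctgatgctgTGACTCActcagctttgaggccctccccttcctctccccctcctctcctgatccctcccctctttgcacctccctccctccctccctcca
Col6a2 (chr10:76623405-76623524, minus strand): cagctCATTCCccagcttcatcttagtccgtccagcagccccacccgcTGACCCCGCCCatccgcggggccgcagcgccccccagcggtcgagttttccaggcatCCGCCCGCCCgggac
Gstp2 (chr19:4042222-4042341, minus strand): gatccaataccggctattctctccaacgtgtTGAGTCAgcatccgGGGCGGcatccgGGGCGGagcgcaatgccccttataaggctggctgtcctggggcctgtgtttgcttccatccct
Col6a1 and Gstp2 each hold an AP-1 match, and Col6a2 holds a TEAD match. In the window from 250 bases before to 50 after the start, RefSeq promoters were matched for 56 of the 89 genes, 7 of the 10 genes at least 2-fold lower and 9266 of 12263 distinct names considered. A gene with several listed starts counted if any of them held a match, so such genes had more chances. TEAD matches were in 13 (23.2%) of the 56 genes, 0 of the 7 and 14.3% of all. AP-1 matches were in 4 (7.14%) of the 56, 2 (28.6%) of the 7 and 6.51% of all. SP1 matches were in 31 (55.4%) of the 56, 4 (57.1%) of the 7 and 70.9% of all, and the antioxidant core was in 6 (10.7%), 1 (14.3%) and 17.2%. These are letter matches and were not tested.

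Several receptor, transcription factor and secreted signal genes were higher in the collagen-high lines, and others were not. Pdgfrb, the receptor for platelet-derived growth factor B found on pericytes and fibroblasts, had 25.4, 17.4 and 62.0 CPM in the collagen-high lines, against 0.0726 and 0.149 CPM in the collagen-low lines and 0 CPM in both WT lines. Pdgfra, its relative on fibroblasts, had 22.1, 51.5 and 36.6 CPM in the collagen-high lines, against 5.25 and 6.13 CPM in the collagen-low lines. Prrx1, a homeobox factor of mesenchyme, had 45.8, 9.99 and 111 CPM in the collagen-high lines, against 0.411 and 0.0893 CPM in the collagen-low lines. None of these 3 genes overlapped between the sides. Over the fibroblast markers, 16 of 22 were considered, with a median difference of 2.20. Of the 16, 9 were higher without overlap and 3 were at least 4-fold higher, beside 11.8% and 0.726% of all genes considered. The summed CPM of all 22 did not separate the sides, at 1859, 1621 and 2269 in the collagen-high lines. The sums were 1255 and 2662 CPM in mutant 2 and null 1, and 2353 and 2488 CPM in WT. Other fibroblast markers were at or near 0 throughout: Tcf21 had 0 counts in all 7 lines. Fgf7, a growth factor that fibroblasts supply to epithelium, had 101, 38.8 and 55.2 CPM in the collagen-high lines, against 0.121 and 0.476 CPM in the collagen-low lines. Cxcl12, a chemokine, had 39.6, 11.7 and 22.8 CPM in the collagen-high lines, against 2.37 and 0.179 CPM in the collagen-low lines. Of 18 cytokine and chemokine genes considered, 4 were higher and 0 lower without overlap, beside 11.8% and 8.2% of all genes. Spp1, which encodes osteopontin, had 155, 361 and 180 CPM in the collagen-high lines, against 1.62 and 5.15 CPM in the collagen-low lines. In the TGF-beta and BMP pathway, 25 of 26 genes were considered, 8 were higher and 1 lower without overlap, beside 11.8% and 8.2% of all genes, and the median difference was 0.63. The ligand Tgfb3 had 33.0, 27.6 and 25.8 CPM in the collagen-high lines, against 4.53 and 1.46 CPM in the collagen-low lines, whereas Tgfb1 was slightly lower, at 69.3, 91.7 and 57.1 CPM against 96.3 and 97.0 CPM.

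The EMT genes did not move as a block. Of 16 listed and considered, 6 were higher without overlap, 2 of those at least 4-fold, and 0 were lower without overlap. The shares of all genes considered were 11.8%, 0.726% and 8.2%. The median difference of the list was 1.11. Snai1, which encodes the repressor Snail, had 10.9, 2.83 and 16.5 CPM in the collagen-high lines, against 0.0484 and 0.268 CPM in the collagen-low lines. Vim, which encodes the mesenchymal filament vimentin, had 359, 841 and 232 CPM in the collagen-high lines, against 588 and 2.65 CPM in mutant 2 and null 1, and 0.607 and 3.29 CPM in WT. Zeb1, a repressor of epithelial genes, had 30.2, 54.8 and 6.44 CPM in the collagen-high lines, against 54.6 and 0.268 CPM in mutant 2 and null 1. Mutant 2 was thus as high as the collagen-high lines for Vim and Zeb1 while it lacked Bgn and Col6a1, and null 1 was low for all 4 genes. Cdh2, which encodes N-cadherin, had the same order as Vim on the collagen-low side, with 48.1, 27.8 and 23.8 CPM in the collagen-high lines against 73.4 and 0.208 CPM in mutant 2 and null 1.

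Epithelial identity genes were expressed on both sides. Krt5 had 4408, 2258 and 2104 CPM in the collagen-high lines, against 2748 and 3959 CPM in the collagen-low lines and 12991 and 20666 CPM in WT. Trp63, which encodes p63, had 313, 449 and 174 CPM in the collagen-high lines, against 301 and 298 CPM in the collagen-low lines. Cdh1, which encodes E-cadherin, had 497, 453 and 788 CPM in the collagen-high lines, against 295 and 726 CPM in the collagen-low lines. All 3 genes overlapped and were expressed in every line. The junction and splicing list differed by line, with a mean log2(CPM + 0.5) of 5.65, 4.67 and 6.78 in mutant 1, mutant 3 and null 3, against 4.86 and 7.204 in mutant 2 and null 1, and 7.28 and 6.87 in WT. Mutant 3 and mutant 2 were thus the lowest lines, 1 on each side. Of 19 junction and splicing genes 0 were higher and 1 was lower without overlap, and of 10 desmosome genes none separated in either direction. Among all genes considered, 11.8% were higher and 8.2% lower without overlap. The list medians were -0.36 and 0.04. Among 13 basal epithelial genes considered, 3 were lower without overlap, beside the same 8.2% of all genes. Of these, Krt15, a keratin of basal progenitor cells, had 4.98, 17.4 and 2.16 CPM in the collagen-high lines, against 95.9 and 44.5 CPM in the collagen-low lines and 45.1 and 62.8 CPM in WT. Krt14 was lower by a far smaller gap, with 3667, 3677 and 2480.5 CPM in the collagen-high lines against 6556 and 3978 CPM in the collagen-low lines.

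**Figure D2:**
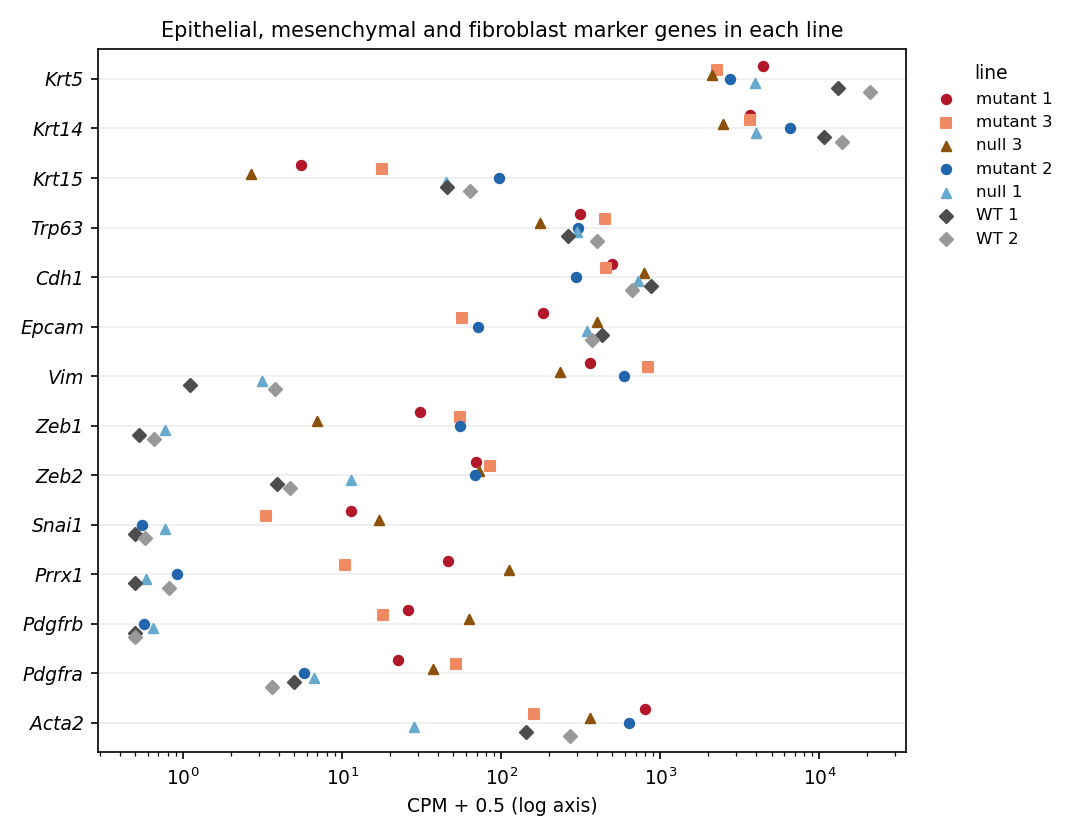
Epithelial, mesenchymal and fibroblast genes by line, as CPM + 0.5 on a log axis with 1 point per library and collagen-high lines in reds and brown, collagen-low lines in blues and WT in greys. For Krt5, Trp63 and Cdh1 the reds and blues overlap, Pdgfrb and Prrx1 separate the sides, and for Vim and Zeb1 the blue circle of mutant 2 sits among the collagen-high lines.

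Markers of other cell types were read for every line. All 9 endothelial markers were too low to be considered, with sums of 1.03 to 2.24 CPM in the collagen-high lines and 0.871 and 1.40 CPM in the collagen-low lines. Of the leukocyte markers only Cd68 was considered. It had 50.3, 93.6 and 23.3 CPM in the collagen-high lines, against 71.8 and 31.4 CPM in the collagen-low lines. The pan-leukocyte marker Ptprc had at most 2 counts in a line, and the T-cell marker Cd3e had 0 in all 7. Skeletal muscle genes did differ, and in 1 line above all. Their sums were 18.2, 2.22 and 115.5 CPM in mutant 1, mutant 3 and null 3, against 5.03 and 2.65 CPM in mutant 2 and null 1, and 18.9 and 35.2 CPM in WT. The myogenic regulators Myod1 and Myog, named after their values were seen, had 23.8 and 30.0 CPM in null 3, 0.638 and 0.128 CPM in mutant 1 and 0 counts in the other 5 lines. Smooth muscle and pericyte markers summed to 28.0, 6.64 and 112.6 CPM in the collagen-high lines, against 3.97 and 6.10 CPM in the collagen-low lines, and to 125.4 and 131.9 CPM in WT, mostly from Mcam. Schwann and neuronal markers summed to 18.55, 3.345 and 14.37 CPM in the collagen-high lines, against 2.734 and 5.476 CPM in the collagen-low lines. In WT they summed to 12.59 and 18.35 CPM. Of the 8 listed, 2 were considered and 1 was higher without overlap, beside 11.8% of all genes considered. The part of these muscle, pericyte, Schwann and neuronal markers in the matrix differences was not tested. Without null 3 the count of genes at least 4-fold higher was 116, and without mutant 1 it was 98. The rule can hardly give fewer genes with a line left out, so nothing about these markers is read from those counts.

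Each genotype holds lines of both sides, so the difference could be read separately in mutant and in null lines, which share no library. With mutant 1 and 3 averaged and set against mutant 2, 417 genes (3.4%) were at least 4-fold higher and 40 (0.326%) at least 4-fold lower on log2(CPM + 0.5). In null 3 against null 1, 691 genes (5.63%) were at least 4-fold higher and 128 (1.04%) at least 4-fold lower. Of the higher genes, 218 were on both lists, which is 52.3% of the mutant list and 31.5% of the null list. The count of 218 was 131 without mutant 1, and 360 and 89 with 0.1 and 2 added to CPM in place of 0.5. Bgn was 10.18 higher in the mutant and 9.46 higher in the null comparison, and Col6a1 5.58 and 6.89 higher. Of the lower genes, 4 were on both lists, which is 10.0% of the mutant list and 3.12% of the null list. They were Aldh3a1, Gsta2, Gsta3 and Krt15. Another 10 genes were at least 4-fold higher in the mutant and lower in the null comparison, among them Ehf, an epithelial transcription factor, and Sprr2h, a cornified-envelope gene. Ehf had 32.3 and 71.2 CPM in mutant 1 and 3 against 2.20 CPM in mutant 2, and 69.0 CPM in null 3 against 296 CPM in null 1. The other direction held 11 genes. Across the 12264 genes the differences of the 2 genotypes had a Pearson r of 0.397, and r was 0.408 over the 10680 genes with at least 5 CPM in 2 lines. This r describes genes, which are not independent replicates, and both comparisons were sorted on Col3a1. With 1 library as the collagen-low line in each genotype, and 1 as the collagen-high null line, no replicate check of the within-genotype differences was possible in the null lines.

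**Figure D3:**
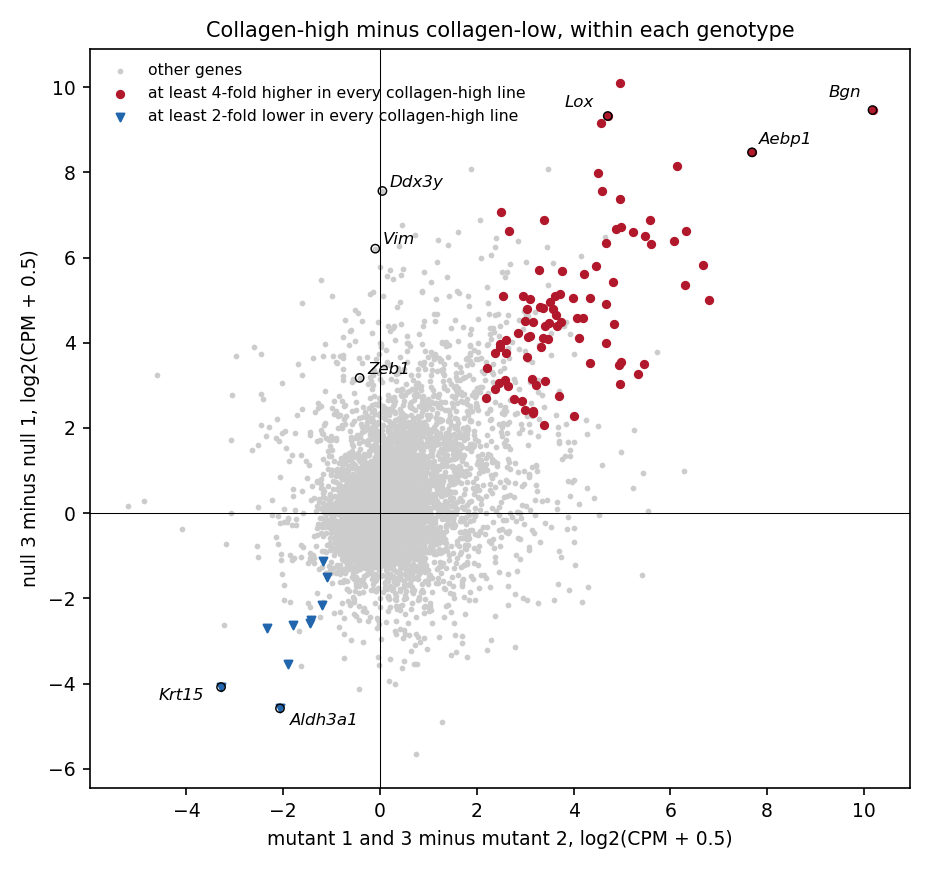
Each point is a gene, with mutant 1 and 3 minus mutant 2 on the horizontal axis and null 3 minus null 1 on the vertical axis, both on log2(CPM + 0.5). Red points are the 89 genes at least 4-fold higher in every collagen-high line and blue triangles the 10 genes at least 2-fold lower, while Vim, Zeb1 and Ddx3y, which differ in the null comparison only, lie near 0 on the horizontal axis.

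The WT lines, which the rule did not use, were low for most of the 89 genes. Of the 89, 77 (86.5%) were also at least 4-fold higher in every collagen-high line than in both WT lines, a condition that 333 of the 12264 genes (2.72%) met. For the collagen-low lines against WT, 74 genes (0.603%) met it. The 89 were picked for high values in the collagen-high lines, so this count is a description, and nothing is read from the shares side by side. In 66 of the 89 both WT lines were under 1 CPM, and in 59 both collagen-low lines were. In 2 genes, Glipr2 and Lincrna-cox2, WT was not below the lowest collagen-high line. Lincrna-cox2, a long noncoding RNA, had 12.02, 11.2 and 22.8 CPM in the collagen-high lines, against 0.484 and 0.179 CPM in the collagen-low lines and 17.7 and 17.5 CPM in WT. The lines were not equally high. Null 3 was the highest of the 3 collagen-high lines for 51 of the 89 genes, mutant 1 for 22 and mutant 3 for 16, and mutant 3 was the lowest for 56. Mutant 2 was the higher collagen-low line for 51 of the 89 and null 1 for 38. The imprinted noncoding RNA H19 spanned a wide range within the collagen-high side, with 136, 3.72 and 778 CPM in the collagen-high lines against 0.266 and 0.208 CPM in the collagen-low lines.

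**Figure D4:**
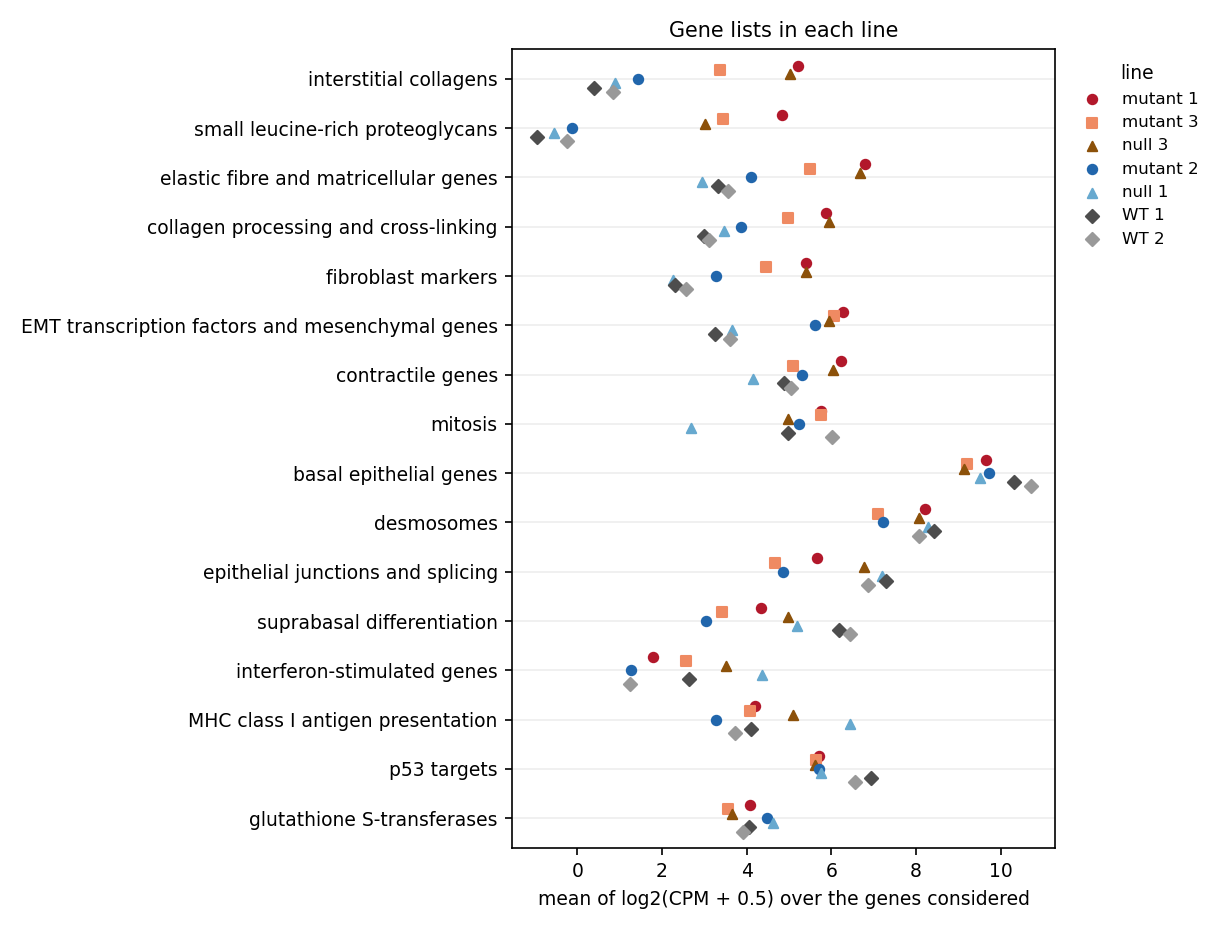
Mean of log2(CPM + 0.5) over the considered genes of 16 lists, with 1 point per library and the collagen-high, collagen-low and WT lines in the same colours as the other plots. Matrix lists place the 3 collagen-high lines above the collagen-low and WT lines, epithelial lists mix the sides, and null 1 stands apart below the others for mitosis.

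The lower side was smaller and held detoxification genes. By the 2-fold rule 10 genes were lower in every collagen-high line than in both collagen-low lines, namely Phospho1, Gstp2, Krt15, Gsta3, Ces2e, Gsta4, Wnt4, Aldh3a1, Dhrs3 and Hgfac, against 238 higher. Aldh3a1, an aldehyde dehydrogenase, had 28.5, 39.3 and 22.0 CPM in the collagen-high lines, against 142 and 537 CPM in the collagen-low lines and 2.81 and 4.47 CPM in WT. WT was the lowest group for this gene. Gsta3, a glutathione S-transferase, had 95.02, 56.8 and 41.9 CPM in the collagen-high lines, against 370 and 275 CPM in the collagen-low lines and 70.2 and 75.8 CPM in WT. Gstp2 had 9.34, 9.96 and 8.28 CPM in the collagen-high lines, against 34.6 and 53.3 CPM in the collagen-low lines. Counting could split near-identical copies, so Gstp2 against Gstp1 and Gsta1 against Gsta2 are uncertain. Of 19 glutathione S-transferase genes considered, 7 were lower without overlap and 0 higher, beside 8.2% and 11.8% of all genes, with a median of -0.42. The NRF2 pathway is a stress-response pathway controlling detoxification genes. A further mixed list of 22 NRF2-pathway and detoxification genes held 8 lower without overlap and 0 higher, beside the same shares, with a median of -0.52. Both of these lists were drawn up after the lower genes were seen. Nqo1, a quinone reductase and a known NRF2 target, had 35.2, 21.8 and 18.6 CPM in the collagen-high lines, against 46.6 and 135 CPM in the collagen-low lines. Nfe2l2, which encodes NRF2, overlapped. Wnt4, a secreted Wnt ligand, had 51.5, 66.8 and 28.4 CPM in the collagen-high lines, against 160.3 and 171 CPM in the collagen-low lines.

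**Figure D5:**
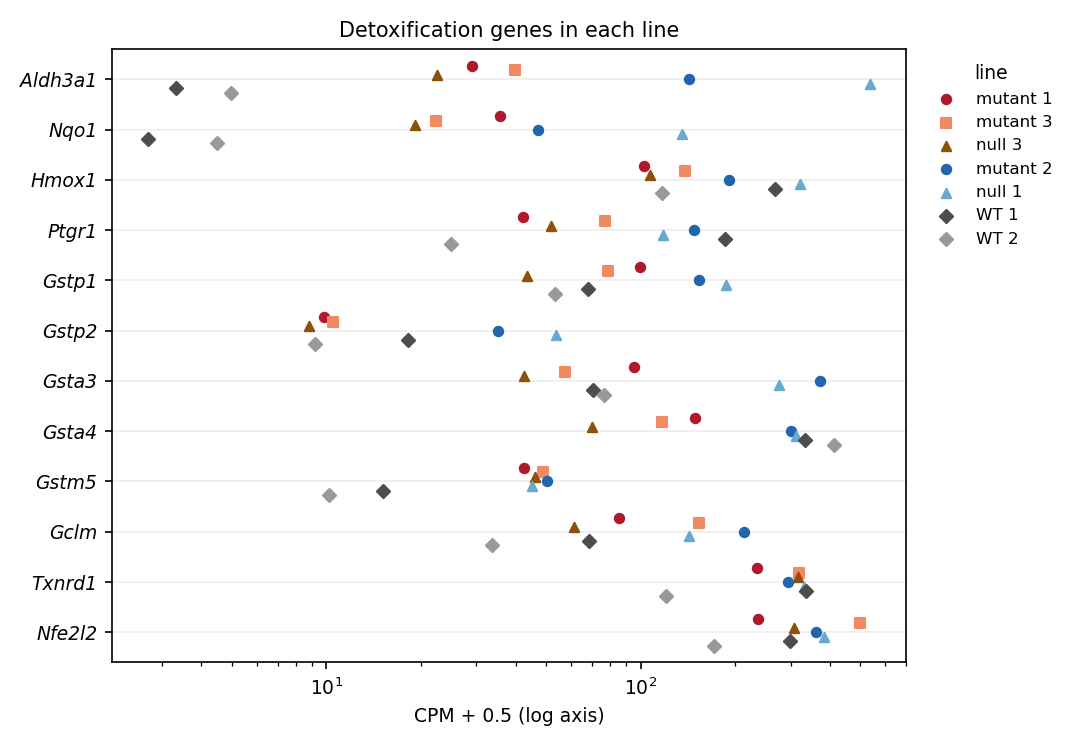
Detoxification genes by line, as CPM + 0.5 on a log axis with 1 point per library and the same colours as the other plots. Aldh3a1, Gsta3 and Gstp2 place both collagen-low lines to the right of the 3 collagen-high lines, while Gstm5, Txnrd1 and Nfe2l2 do not separate the sides.

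Growth, immune and sex-linked genes differed strongly in null 1. All 22 mitosis genes had a positive difference, and 6 were higher without overlap, beside 11.8% of all genes. Mki67, a marker of cycling cells, had 195, 156 and 101 CPM in the collagen-high lines, against 155 CPM in mutant 2 and 14.3 CPM in null 1. Over the list, the median of the mitosis genes was 0.49 in the mutant comparison and 2.10 in the null comparison. Of 28 interferon-stimulated genes considered, 0 were higher and 0 lower without overlap, beside 11.8% and 8.2% of all genes. The MHC class I subunit gene B2m had 265, 399 and 684 CPM in the collagen-high lines, against 164 CPM in mutant 2 and 2032 CPM in null 1. Ddx3y, a Y-linked gene, had 80.5, 68.7 and 99.7 CPM in the collagen-high lines, against 71.8 CPM in mutant 2 and 0.0298 CPM in null 1. Xist, the RNA of X inactivation, had at most 0.982 CPM in any of the 5 4NQO lines and 635 and 1596 CPM in WT. In mitosis and Y-linked genes the collagen-low side thus rested on null 1, while mutant 2 was close to the collagen-high lines.

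Genotype, the labelled comparison among the 5 lines, was tested independently of the split. In edgeR's quasi-likelihood test with Benjamini-Hochberg adjustment, 0 of 13768 genes (0%) were called in mutant against null at an adjusted p threshold of 0.05, while 1924 (14%) passed 0.05 before adjustment. By DESeq2, 635 of 13075 genes (4.86%) were called, and edgeR called 22 when null 3 was left out. The 89 genes at least 4-fold higher in the collagen-high lines hold a high and a low line in each genotype by the way they were picked, so their results in this test say nothing about genotype and are not given. A missing call does not show equal levels.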

How the data were processed

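RNA-seq of 7 mouse cell lines was deposited by the authors as a table of raw counts per gene, not normalized, for 23955 genes and 92 spike-in names with 0 counts in total, which were left out. The submitters' processing notes name STAR 2.5.1b and mm9. How reads were counted, with which annotation and strand setting, is not given in the sources used here. Overlapping and antisense genes are therefore uncertain. Per the labels' protocols, libraries were made with a TruSeq Stranded mRNA kit. The table holds 27 date-like names, which were counted and not named.

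CPM used column totals. Genes considered had at least 1 CPM in at least 2 of the 5 4NQO lines, and log values used CPM + 0.5. The split was not tested, because the lines were sorted on Col3a1. Mutant against null was tested on all 7 libraries in 1 fit with edgeR 4.0.16 (R 4.3.3, TMM factors, common biological coefficient of variation 0.485), and DESeq2 1.42.0 was an alternative. The fit was tested on simulated data with less spread between libraries than these data had. That run therefore does not show how often real changes were missed. Other steps used Python 3.11.15.

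The members and the gene lists were chosen with earlier results of these data known. The naming rule took the 12 widest gaps each way among genes averaging at least 5 CPM on the higher side, without predicted or date-like names, up to 4 genes a list, and 12 genes of prior interest. Other genes were named after their values were seen. The labels do not say that lines came from separate animals, so a p-value here reflects line-to-line spread only. In the 5 pairs of libraries within a group, a chi-square test of counts gave 55.9 to 233.6 per degree of freedom, so none of these pairs was a copy. The correlation of deviations between same-numbered mutant and null lines was -0.405 for number 1 and -0.021 for number 3. Both values rest on the difference between null 1 and null 3, so they cannot show whether replicate numbers pair samples. Alternatives were other scaling, pseudocounts, filters, folds, thinning to 25469853 counts and leaving out each line.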

Additional observations from a re-analysis of the deposited data

Results flagged for a closer look

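In 3 of 29 gene lists, 1 of the 5 4NQO lines lay far from the other 4 in mean log2(CPM + 0.5), and in each it was null 1, a collagen-low line. The gap from null 1 to its nearest neighbour, divided by the range of the 5 lines, was 0.901 for sex-linked genes, 0.753 for EMT transcription factors and mesenchymal genes, and 0.743 for mitosis genes. The critical value for 5 samples is 0.71, and chance flags about 1 in 20 groups. Mean log2(CPM + 0.5) of the mitosis genes was 5.76, 5.76 and 4.97 in mutant 1, mutant 3 and null 3, against 5.24 in mutant 2 and 2.69 in null 1. For the EMT and mesenchymal genes it was 6.28, 6.06 and 5.94 in the collagen-high lines, against 5.62 in mutant 2 and 3.64 in null 1. For the sex-linked genes it was 5.09, 4.71 and 5.33 in the collagen-high lines, against 4.82 in mutant 2 and -0.98 in null 1. In all 3 lists null 1 lay far below mutant 2, the other collagen-low line.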

How the results depend on the processing

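The count of 89 genes at least 4-fold higher was 89 with TMM or RLE scaling or no filter, 78 with a filter of 5 CPM and 90 after thinning. It was 146 with a pseudocount of 0.1, 40 with 2, 238 at 2-fold and 35 at 8-fold, and 98 to 327 when 1 line was left out (263 without mutant 3, 327 without mutant 2, 184 without null 1). The count of 0 genes 4-fold lower became 1 with a pseudocount of 0.1, 10 at 2-fold, and 1 to 56 when 1 line was left out, with 5 without mutant 1, 2 without mutant 3, 1 without null 3, 56 without mutant 2 and 12 without null 1. The 218 genes higher in both genotypes became 360 with a pseudocount of 0.1, 89 with 2, 587 at 2-fold, 85 at 8-fold, and 131 and 319 without mutant 1 and mutant 3. The 4 genes lower in both became 7 with a pseudocount of 0.1, 41 at 2-fold, 1 at 8-fold, and 7 and 5 without mutant 1 and mutant 3. For mutant against null, the count of 0 calls was 1 with RLE factors, 2 with no filter, 635 with DESeq2, and 0 to 22 when 1 library was left out (22 without null 3). The replicate block gave 0 calls as well, and 1492 genes at an unadjusted p under 0.05, beside 1924 without it. Leaving out a line relaxes the rule behind the counts of 89 and 0, so those counts could hardly fall. The cause of the other shifts was not tested.

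The median of the cytokine and chemokine list, 1.04, reversed to -0.82 without mutant replicate 2 and ranged from -0.82 to 1.42 when 1 line was left out. Of the other list medians under all alternatives 323 stayed within the spread between lines and 47 moved beyond it, and of the gene differences 907 stayed, 111 moved and 0 reversed. Precision is limited by 3 and 2 lines a side. Counting error matters only for genes of a few counts, where 1 count was worth up to 0.0784 CPM.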

Other observations

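Growth factor and matrix-remodelling genes that were not described above divided in the same partial way. In the IGF system, 10 genes were considered, 5 were higher and 1 lower without overlap, beside 11.8% and 8.2% of all genes considered, and the median difference was 2.09. Igf2, a growth factor expressed beside H19, had 18.8, 3.11 and 201 CPM in the collagen-high lines, against 1.48 and 2.68 CPM in the collagen-low lines, so mutant 3 stayed close to the collagen-low side. Igfbp5, a binding protein for these factors, had 11.6, 0.444 and 32.4 CPM in the collagen-high lines, against 0.0484 and 0.149 CPM in the collagen-low lines. Of 23 matrix proteases and inhibitors considered, 8 were higher without overlap and 0 lower, beside the same shares of all genes. Timp3, a protease inhibitor held in the matrix, had 887, 269 and 1166 CPM in the collagen-high lines, against 132 and 3.81 CPM in the collagen-low lines. Mmp2, a gelatinase, had 91.3, 8.86 and 31.5 CPM in the collagen-high lines, against 1.33 and 1.90 CPM in the collagen-low lines.

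Of 14 contractile genes considered, 13 had a positive difference, 5 were higher without overlap and 0 were at least 4-fold higher. Among all genes considered, 11.8% were higher without overlap and 0.726% at least 4-fold higher. Acta2, the smooth muscle actin of activated fibroblasts, had 804, 160 and 362 CPM in the collagen-high lines, against 638 CPM in mutant 2 and 27.7 CPM in null 1. HOX genes, which record position along the body axis, showed line differences that the split did not sort. Of 23 HOX genes considered, 1 was higher and 0 lower without overlap, beside 11.8% and 8.2% of all genes. Hoxb9 had 34.2, 13.4 and 9.66 CPM in the collagen-high lines, against 0.847 CPM in mutant 2 and 23.2 CPM in null 1, and Hoxc8 had 5.81, 32.9 and 0.353 CPM in the collagen-high lines, against 19.0 and 14.3 CPM in the collagen-low lines. Mutant 2 was the lowest 4NQO line for Hoxb9 and null 3 for Hoxc8.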
